A study of Drosophila melanogaster with 16 samples.

Results

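The regions described here were 386 long acetylation-poor blocks of the chromosome arms 2L, 3L and 3R in Drosophila melanogaster S2 cells, a cultured line that the sample records call macrophage-like and of late embryonic origin. They were chosen from H3 pan-acetylation ChIP-seq of control cells. Reads of the 2 control libraries were summed in each 1-kb bin, and a block was a run of 30 or more consecutive bins, each with fewer than 200 reads. A run was kept where at least 90% of its bins held 5 or more summed control input reads. Of 474 runs, 386 met this input minimum and 88 did not. The blocks covered 28539 of 75459 kb (37.8%) of the 3 arms. All values of control ChIP in the blocks are therefore a description of what was selected, and so is any ratio to those libraries. The limit of 200 reads was not a strict one, since the median bin of the 3 arms held 125 summed control reads. Most bins of the arms were under the limit, and 50.4% of those bins lay in blocks. Blocks thus differ from the rest by long unbroken runs of such bins. The rest also holds many bins under the limit and is not a set of acetylated chromatin.

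H3 pan-acetylation, Hi-C and poly(A)+ RNA were profiled in control and lamin Dm0 knock-down (Lam-KD) S2 cells, with 2 biological replicates per condition and assay. Control cells received double-stranded RNA against bacterial lacZ and Lam-KD cells double-stranded RNA against lamin Dm0, in both cases for 5 days by the sample records. The study's methods give a shorter treatment. Both conditions are therefore dsRNA-treated cells of the same line, and none of the samples was left untreated. The ChIP antibody recognises acetylated histone H3 without separating the acetylated residues, and input is the sheared chromatin before precipitation.

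Summed over 1-kb bins, the control ChIP libraries held 13093678 and 13100860 reads, the Lam-KD ChIP libraries 30005502 and 30004808, and the inputs between 1997575 and 3512310. A read across a bin border can count in each bin, so these sums are not numbers of distinct reads. The study's methods give fewer reads for the ChIP libraries. Duplicates had been removed, so a 1-kb bin can hold at most 2148 reads of 75 bases, and the highest bins held between 2060 and 2130. Bins over the midpoint of this ceiling held 5.98% and 6.13% of the autosomal reads in control libraries and 15.5% and 13.6% in Lam-KD libraries. Depth and condition cannot be told apart in the ChIP data. The depletion of lamin Dm0 itself was not analysed here, and neither was the RNA of genes in the blocks.

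The nuclear lamina (NL) is a meshwork of lamins under the inner nuclear membrane. Long stretches of silent, weakly acetylated chromatin commonly lie against it as lamina-associated domains (LADs), while acetylated and transcribed chromatin lies further inside. In Hi-C maps of fly cells, silent stretches often appear as topologically associating domains (TADs), which contact themselves more than their surroundings. The study asked how loss of lamin changes the acetylation and folding of such chromatin. Whether the blocks are LADs or TADs was not tested.

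Most blocks were short, and a few were very long. Lengths ran from 30 to 420 kb with a median of 55 kb, and quartiles of 39 and 88 kb. There were 224 blocks of 50 kb or more, 86 of 100 kb or more and 12 of 200 kb or more. The 86 blocks of at least 100 kb held 46.0% of the block length. The length rule cut through a continuous distribution, since 26 blocks of 30 or 31 kb lay just inside it and 24 runs of 28 or 29 bins just outside. The mean control ChIP level, in RPKM (reads per kilobase, scaled to the library's autosomal total), was 5.11 for the median block just inside and 4.74 for the median run just outside.

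**Figure D1:**
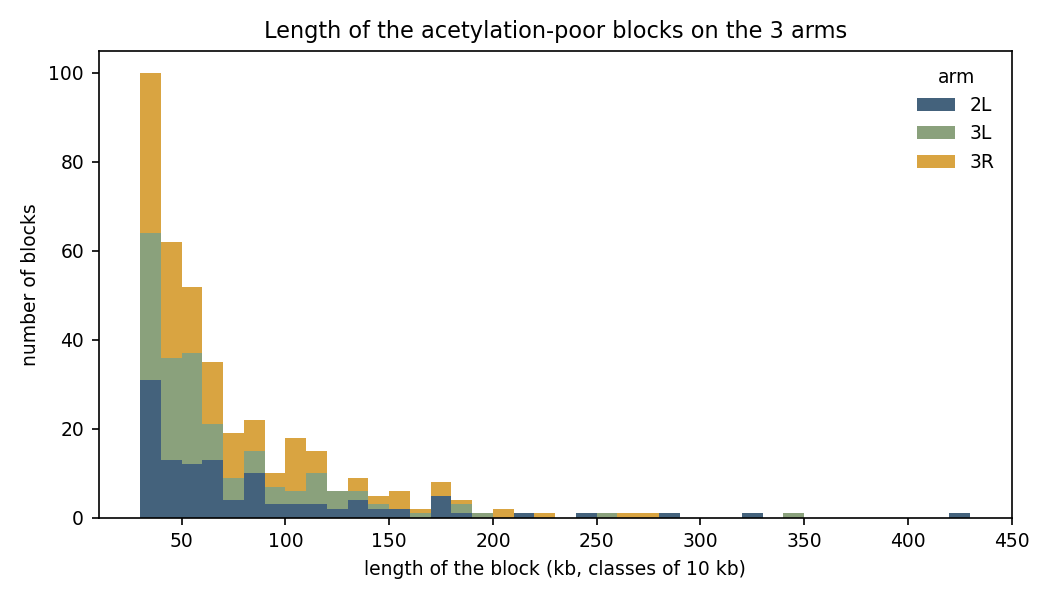
Number of blocks (vertical axis) by length in classes of 10 kb (horizontal axis), stacked by arm. Most of the 386 blocks are shorter than 100 kb, and the longest is 420 kb long, on 2L.

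The arms were similar in their share of blocks, and each held dense and empty parts. 2L held 113 blocks over 9124 kb (39.7% of the arm), 3L held 126 over 8571 kb (34.9%) and 3R held 147 over 10844 kb (38.9%). In 1-Mb windows the highest shares were 79.6% at 2L:17000001-18000000, 73% at 3R:2000001-3000000 and 63.5% at 3L:15000001-16000000. The lowest shares were 0% on 2L, 6.8% on 3L and 0% on 3R. The 2 Mb next to the centromere were covered to 0% on 2L, 11.7% on 3L and 31% on 3R, and the 2 Mb next to the telomere to 24.6%, 23.8% and 44.7%. Of the 88 runs that failed the input minimum, 18 lay within 2 Mb of the centromere side of an arm, so blocks were undercounted there. Most of the 88 lay elsewhere on the arms, where runs were lost too.

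Many blocks were separated by very little. The median gap between neighbours was 53 kb, but 38 of 383 gaps were a single bin of 1 kb and 54 were at most 2 kb. The bin of a 1-kb gap held a median of 224 control reads, just above the limit of 200. Joining blocks at most 2 kb apart left 332 stretches. The longest then spanned 461 kb and 4 blocks at 2L:17502001-17963000, in the densest 1-Mb window of the arm.

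The 5 longest blocks lay at 2L:16911001-17331000 (420 kb), 3L:13512001-13855000 (343 kb), 2L:4466001-4794000 (328 kb), 2L:18159001-18442000 (283 kb) and 3R:23814001-24090000 (276 kb), all on the dm3 assembly. The first of them contains both sites of cytological region 36C that the study probed by fluorescence in situ hybridisation. Its control ChIP level was 3.63 and 3.27 RPKM in replicates 1 and 2, below the medians over all blocks of 4.85 and 4.66. The median 1-kb bin of this block held 78 summed control reads and its highest bin 174. Across all blocks the median bin ranged from 40 to 153 reads.

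Acetylation in the blocks lay below input in every control measurement. The log2 ratio of the ChIP share to the input share had a median of −0.55 in control replicate 1 and −0.58 in control replicate 2, with 386 of 386 blocks below 0 in each, as their selection favours. In the 30-kb tiles of the rest of the 3 arms the medians were −0.046 and −0.050 over 1594 tiles with enough input, and 53.0% and 53.4% lay below 0. The blocks' ratios ranged from −1.14 to −0.070 in replicate 1 and from −1.17 to −0.081 in replicate 2. Their order was similar in both control replicates, each with its own ChIP and input library, with a Spearman's rho of 0.82 over 386 blocks. The ChIP libraries of both replicates chose these blocks, and all blocks of a replicate share its libraries.

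Blocks stayed below input in nearly all cases in Lam-KD cells, at a higher level. Medians were −0.32 and −0.28 in Lam-KD replicates 1 and 2, with 376 and 381 of 386 blocks below 0. The Lam-KD medians did not overlap the control medians. In the rest of the arms the medians were 0.011 and −0.0059. With counts corrected for the ceiling of duplicate removal, taking start positions as random, the mean of the block medians was −0.71 in control and −0.50 in Lam-KD cells.

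Input coverage itself was lower in the blocks. The median block had 7.18, 7.06, 7.23 and 7.17 input RPKM in control replicates 1 and 2 and Lam-KD replicates 1 and 2, against 11.4, 11.5, 11.4 and 11.4 in the rest. This gap was of like size in all 4 inputs, and its part in the ratios to input was not tested. Between conditions, the input of blocks did not differ in any call. edgeR's quasi-likelihood test called 0 of 386 blocks at an adjusted p under 0.05, where 1 of 1986 regions was called higher (0.0504%) and 2 lower (0.101%). At an unadjusted p under 0.05, 27 blocks were higher and 4 lower, against 77 (3.88%) and 91 (4.58%) of all regions, and DESeq2 called 0 blocks.

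**Figure D2:**
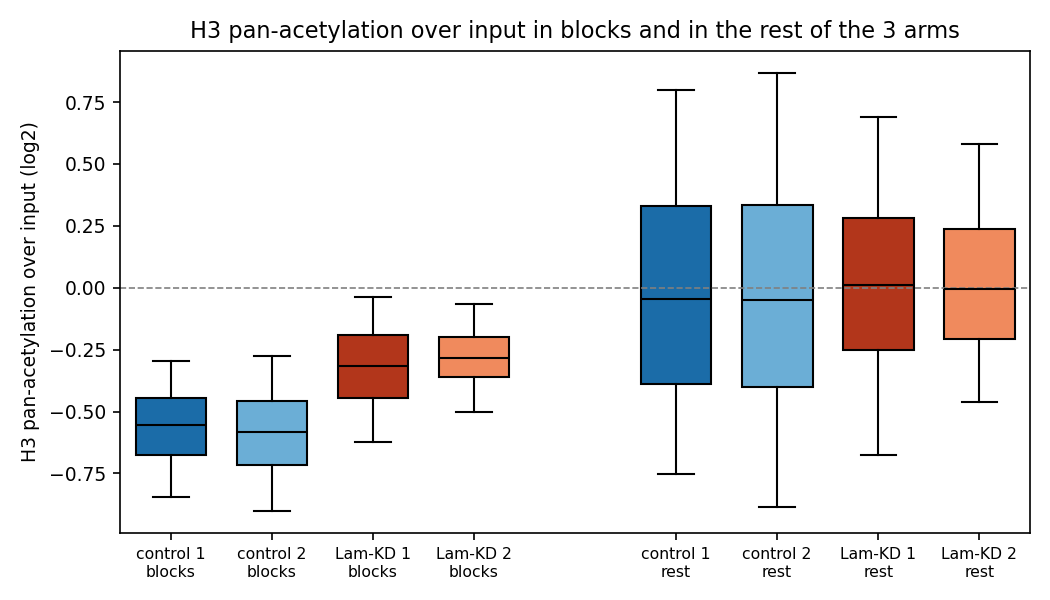
H3 pan-acetylation over input (log2, vertical axis) in each of the 4 cultures for the 386 blocks and 1594 tiles of the rest; lines are medians, boxes quartiles and whiskers the 5th and 95th percentiles over regions. The blocks' medians are −0.55 and −0.58 in control and −0.32 and −0.28 in Lam-KD cells, while those of the rest stay near 0.

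The edges of blocks were sharp. Over the 344 edges of the 172 blocks of 60 kb or more, the bin just outside held a median of 13.2 and 12.7 control RPKM in replicates 1 and 2. The outermost bin inside held 6.08 and 5.97, and the bin 6 kb further in 4.54 and 4.35. Acetylation next to the blocks thus peaked within 2 kb of the edge, and at 10 kb outside it was 5.81 and 5.75 RPKM. Input peaked there too, with medians of 13.3 and 12.6 control RPKM in the bin just outside, 8.44 and 9.01 in the outermost bin inside and 7.83 and 7.81 at 10 kb outside. Part of the peak and of the step is therefore also in input. The rule itself sets the step at the edge, since the bin outside had to reach 200 summed reads. All 772 outside bins had a median of 273.

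**Figure D3:**
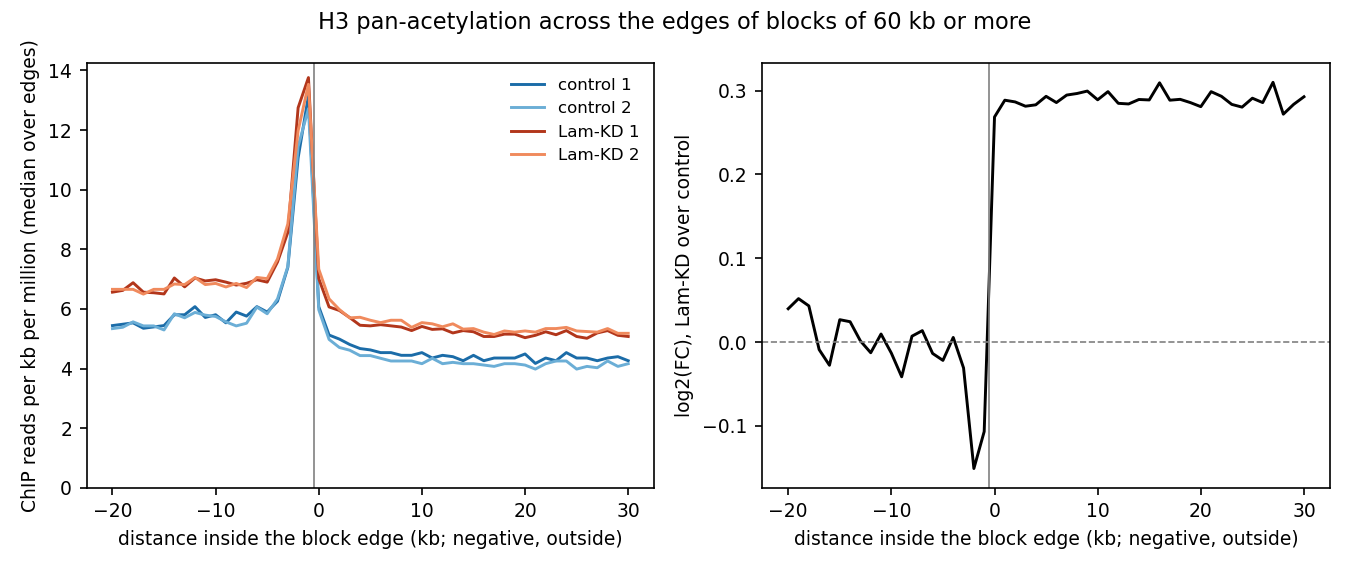
H3 pan-acetylation (left, median ChIP RPKM over edges, 1 line per library) and log2(FC) of summed reads, Lam-KD over control (right), against distance inside the block edge in kb, for 344 edges. Levels peak in the 2 kb outside the edge, and log2(FC) steps from −0.11 in the first bin outside to 0.27 in the first bin inside.

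The share of ChIP reads that fell into blocks was larger in Lam-KD libraries. Blocks took 12.9% and 12.4% of autosomal ChIP reads in control replicates 1 and 2, and 15.2% and 15.6% in Lam-KD replicates 1 and 2. The median log2(FC) of the blocks was 0.29 when each Lam-KD library was set against each control library, with medians of the 4 pairs from 0.25 to 0.32, which is a fold of 1.22. All 386 blocks were higher in all 4 pairs, where 55.3% of 1988 regions were so. The control libraries chose the blocks, so these ratios are a description, and nothing is read from the share. The tiles of the rest had a median log2(FC) of 0.055, and the difference between blocks and rest was 0.23. Between the 2 control replicates the same difference was 0.057 and between the 2 Lam-KD replicates −0.024.

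Scaling moved the level of these ratios but not their difference. Scaled by TMM factors the median log2(FC) of blocks was 0.18 and that of the rest −0.050. Scaled by each library's median 1-kb bin, the values were 0.014 and −0.22. The median over all regions in the edgeR fit moved from 0.12 with library sums to 0.012 with TMM. The difference of 0.23 holds for any single factor per library, and it was 0.17 with counts corrected for the ceiling.

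To measure the change in libraries that did not choose the members, blocks were also chosen in 1 control replicate and compared with the other. Blocks chosen in replicate 1 alone numbered 387 and had a median log2(FC) of 0.31 against control replicate 2, with a difference from the rest of 0.26. Blocks chosen in replicate 2 alone numbered 379 and had a median of 0.26 against control replicate 1, with a difference of 0.20. The mean ratio was above 0 in 387 of 387 and 379 of 379 blocks, and in 58.0% and 61% of the tiles of the rest. With counts corrected for the ceiling the differences were 0.19 and 0.13.

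The test on these independent libraries gave unequal calls. edgeR's quasi-likelihood test called 314 of 387 blocks chosen in replicate 1 higher at an adjusted p under 0.05, where 21.3% of all 2022 regions were called higher, and 0 blocks lower, where 6.97% of regions were. At an unadjusted p under 0.05, 380 blocks were higher and 0 lower, against 37.7% and 13.1% of all regions. It called 0 of 379 blocks chosen in replicate 2, where 0% of 1999 regions were called. At an unadjusted p under 0.05, 358 of the 379 were higher and 0 lower, against 32.2% and 11% of all regions, and DESeq2, which gave an adjusted p to 157 of them, called 0 blocks and 0% of 953 regions higher and 32.0% lower. Each of these fits has 1 control library, which is assumed to vary like the Lam-KD pair. With TMM the count of 314 went to 31, with 1.53% of regions higher and 15.7% lower, and with ceiling-corrected counts to 0, so the adjusted calls do not hold across scalings. In the fit of all 4 ChIP libraries, which include those of the rule and so give a description, 386 of 386 blocks were called higher, against 42% of regions higher and 13.9% lower. At an unadjusted p under 0.05 these were 386 blocks, 45.8% and 15.7%.

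Scaled by library sums, weakly acetylated bins outside the blocks also had more Lam-KD reads. Bins were sorted by their reads in control replicate 1, and Lam-KD was compared with control replicate 2. Among bins of 50 to 74 reads, 11680 bins of blocks had log2(FC) of 0.30 and 0.29 in Lam-KD replicates 1 and 2, and 10276 other bins had 0.27 and 0.30. Among bins of 25 to 49 reads the values were 0.32 and 0.40 for blocks and 0.29 and 0.47 for other bins. The blocks were chosen from both control replicates, so these values are a description, and no test was made of bins in blocks against other bins. The sign of these values depends on the scaling by library sums, with which the blocks' median log2(FC) was 0.29. With each library's median bin that median was 0.014, and the bins sorted here were not rescaled so.

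Scaled by library sums, bins with 200 or more reads went the other way. At 100 to below 200 reads, the 127 bins of blocks had log2(FC) of 0.32 and 0.36 and other bins 0.16 and 0.14. In the mirror choice these were 0.39 and 0.30 against 0.19 and 0.18. By the rule, a block bin with 100 or more reads in 1 control replicate must have fewer than 100 in the other. Selection thus favours higher ratios of block bins in this class, and nothing is read from this difference. Outside the blocks, log2(FC) was −0.054 and −0.082 at 200 to 399 reads, and −0.65 and −0.67 from 800 reads on. With counts corrected for the ceiling the last values were −0.37 and −0.43, and those of block bins at 50 to 74 reads 0.22 and 0.24. At 200 to 399 reads the corrected values were −0.012 and −0.036, and in the mirror choice 0.0085 and −0.0080. No clear direction was thus left in that class. The mirror choice, with bins sorted in control replicate 2, gave 0.24 and 0.24 for block bins and 0.25 and 0.29 for other bins at 50 to 74 reads.

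**Figure D4:**
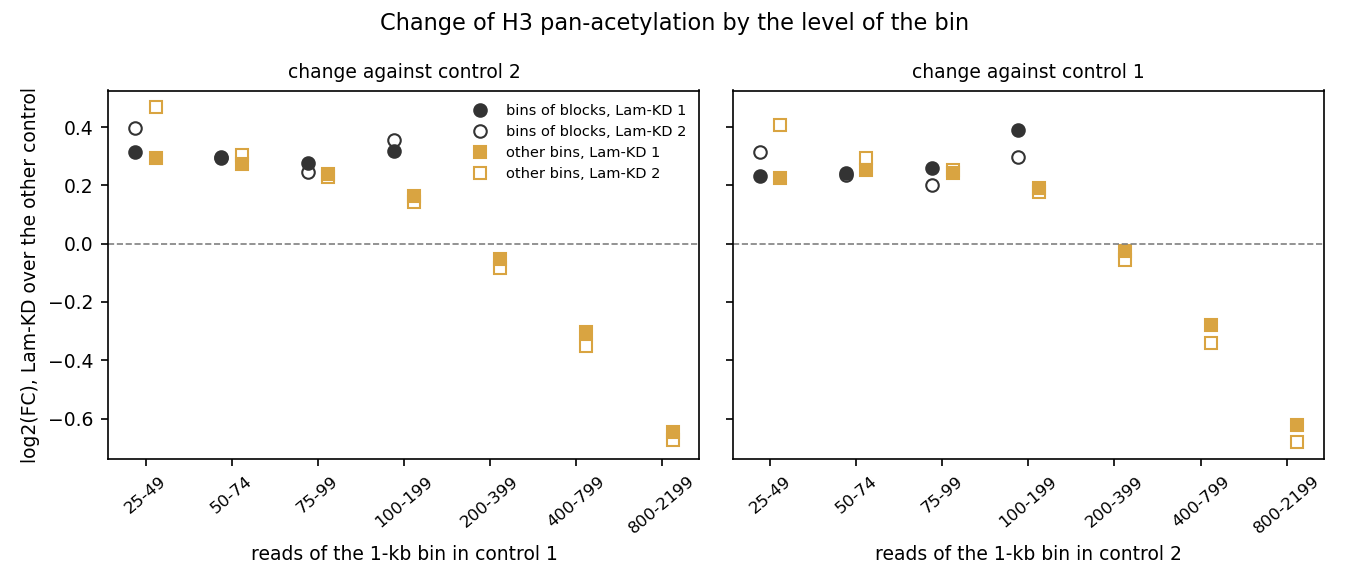
log2(FC) of H3 pan-acetylation (vertical axis) of Lam-KD replicate 1 (filled) and 2 (open) against 1 control replicate, for 1-kb bins grouped by their reads in the other control replicate (horizontal axis). Scaled by library sums, bins of blocks (circles) and other bins (squares) with 50 to 74 reads both lie between 0.24 and 0.30. The strongest bins lie below −0.6.

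Single blocks differed little in this ratio, and their order was not shared by pairs of libraries. The largest log2(FC) over the 4 pairs were 0.39 at 3L:23273001-23331000, 0.39 at 3L:22954001-23087000 and 0.39 at 2L:10440001-10477000, and the smallest 0.19 at 3R:14811001-14849000, 0.20 at 3R:4351001-4386000 and 0.21 at 3L:6605001-6637000. The first 2 were the last blocks of 3L before the centromere. In the block at 3L:22954001-23087000 the ChIP level was 3.58 and 3.25 in control and 4.01 and 4.98 in Lam-KD replicates, so Lam-KD replicate 2 had the larger ratio. Across blocks the ratio of the first replicates and that of the second replicates had a Spearman's rho of −0.40, and the 2 remaining pairs a rho of 0.0090. Length and ratio had a rho of 0.051. In the 36C block the level was 3.63 and 3.27 in control and 4.16 and 4.63 in Lam-KD replicates, a log2(FC) of 0.35 with pairs from 0.20 to 0.50.

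Most block bins stayed under the limit in Lam-KD cells. After scaling the limit to the depth of the Lam-KD libraries, 98.0% of block bins lay under it, against 50.8% of other bins, and 145 of 386 blocks lay under it throughout. Choosing blocks in the Lam-KD libraries by the same rule, with the scaled limit, gave 333 blocks over 23689 kb. Of the control block length 82.7% also lay in those blocks, and of their length 99.6% lay in control blocks. With this limit, acetylation-poor blocks of Lam-KD cells were thus nearly all parts of those of control cells. The limit was scaled by library sums, with which the median log2(FC) of blocks was 0.29, against 0.014 with the median bin. No other scaling of the limit was tried.

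Hi-C was not used to choose the blocks and gave an independent view of them. The maps hold corrected contact values of 20-kb bins, and observed/expected is a pair's value divided by the mean of all pairs of the arm at the same distance. A bin was counted to a block where the block covered 10 kb or more of it, which gave 1444 of 3775 bins, 1442 of them with contacts in all 4 maps. There were 222 blocks of 3 or more bins. The correction gives every bin the same total, so a bin with more contacts nearby must have fewer elsewhere.

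Blocks contacted themselves strongly in control cells. Over 2301 pairs of bins within a block at least 2 bins apart, the mean observed/expected was 1.73 in control replicate 1 and 1.71 in control replicate 2. At 40 to 100 kb it was 1.45 and 1.43, against 0.875 and 0.881 within stretches of the rest. Pairs across a block edge at the same distance had 0.919 and 0.920. The excess grew with distance, to 2.35 and 2.32 at 120 to 200 kb and to 3.47 and 3.46 over 116 pairs beyond 200 kb. Stretches of the rest had 0.853 and 0.856 and then 1.25 and 1.25. Pairs within a block beyond 200 kb come only from blocks of 200 kb or more, of which there were 12. The values at that distance therefore describe the longest blocks and not blocks in general. The gap between blocks and rest was far larger than that between replicates at each of these distances.

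Single blocks varied widely and reproducibly. Of 222 blocks, 208 had a control mean above 1. The median was 1.54 and the quartiles 1.23 and 1.83, and the values of the 2 control replicates had a Spearman's rho of 0.96. The highest were 3.20 at 3L:362001-440000 (3.30 and 3.10 in control replicates 1 and 2), 2.77 at 3L:447001-503000 and 2.74 at 2L:6567001-6611000. The first 2 are neighbours near the telomere of 3L. The lowest were 0.520 at 3L:23273001-23331000 (0.567 and 0.473), 0.646 at 3L:4629001-4670000 and 0.735 at 3L:5839001-5890000. The first of these is the last block of 3L and also the one with the largest log2(FC) of acetylation. A block of 3 bins has a single pair of bins at least 2 apart. Of the blocks named here only 3L:362001-440000 has more than 3 bins, so each of the other values rests on 1 pair.

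Long blocks were not denser than short ones at matched distance. At 40 to 100 kb the 12 blocks of 200 kb or more had 1.26 and 1.22 in control replicates, the 74 blocks of 100 to below 200 kb had 1.52 and 1.50, and 123 blocks of 50 to 99 kb had 1.54 and 1.52. At 120 to 200 kb the longest class had 2.29 and 2.26 and the next 2.51 and 2.48. The 36C block, which spans 21 bins, had a control mean of 2.15 over all its pairs. The other 4 longest blocks had control means of 2.05 (3L:13512001-13855000), 2.05 (2L:4466001-4794000), 1.87 (2L:18159001-18442000) and 1.61 (3R:23814001-24090000).

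Neighbouring blocks contacted each other more, the smaller the gap between them. A gap is all that lies between neighbouring blocks, and a long one can itself hold bins under the limit. At 120 to 200 kb, bins of neighbours split by a gap of 1 or 2 kb had 2.11 and 2.06 in control replicates, close to the 2.35 and 2.32 within a block. With gaps of 3 to 20 kb the values were 1.77 and 1.78, with 21 to 60 kb 1.25 and 1.25, and with 61 to 120 kb 0.909 and 0.942. This order was the same in all 4 maps. The range of distances was the same in all 4 classes.

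Over long distances the blocks did not prefer each other. At 1 Mb or more on the same arm, pairs in different blocks had a mean of 0.785 and 0.790 in control replicates, pairs of a block and the rest 0.859 and 0.858, and pairs within the rest 1.26 and 1.26. Between arms the order was the same, with 0.811 and 0.796 for blocks, 0.892 and 0.887 for mixed pairs and 1.21 and 1.22 for the rest. It held on each of the 3 arms. Without the outer 2 Mb of each arm, the control means on the same arm were 0.765, 0.831 and 1.23.

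Distant contacts of the long blocks were distributed otherwise than those of the short ones, as a description. In control cells 89 of 386 blocks had more contact with blocks than with the rest at 1 Mb or more. Of the blocks of 30 to 49 kb these were 15 of 162 (9.26%), of 50 to 99 kb 30 of 138 (21.7%), of 100 to below 200 kb 34 of 74 (45.9%) and of 200 kb or more 10 of 12 (83.3%). The 12 longest blocks had medians of 0.701 with blocks and 0.635 with the rest, whereas the shortest class had 0.838 and 1.01. In single maps the count among the 12 was 9, 9, 10 and 9 in control replicates 1 and 2 and Lam-KD replicates 1 and 2. In the 36C block the values were 0.627 and 0.585. A short block fills few 20-kb bins, so its bins hold more of its surroundings, and the part of this in the trend was not tested.

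Upon Lam-KD, contacts within blocks relative to those expected were slightly lower. The mean observed/expected over all pairs within a block was 1.73 and 1.71 in control and 1.63 and 1.61 in Lam-KD replicates, a log2(FC) of −0.083 with pairs from −0.10 to −0.063. The groups did not overlap, and the replicates of a condition differed by 0.022 and 0.017. The exact two-sided permutation test over 4 maps gave p = 0.333, the smallest it can give with 2 against 2. At 120 to 200 kb the means were 2.34 in control and 2.13 in Lam-KD cells, a log2(FC) of −0.13. Contacts between different blocks at the same distance also differed without overlap, with 1.27 and 1.28 in control and 1.22 and 1.23 in Lam-KD replicates (exact p = 0.333).

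Distant contacts between blocks were slightly higher. At 1 Mb or more on the same arm they were 0.785 and 0.790 in control and 0.823 and 0.821 in Lam-KD replicates, a log2(FC) of 0.062 (exact p = 0.333). Between arms they were 0.811 and 0.796 in control and 0.857 and 0.855 in Lam-KD replicates, a log2(FC) of 0.091 (exact p = 0.333). Pairs within the rest went the other way, from control means of 1.26 on the same arm and 1.22 between arms to 1.23 and 1.17. All 3 kinds of pairs thus lay closer to 1 in Lam-KD maps, and their order was kept. In each map these values average to 1 over all pairs of a distance, or of the same arms. Pairs of a block and the rest were also higher, so pairs within the rest had to be lower. Their fall is no separate result.

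**Figure D5:**
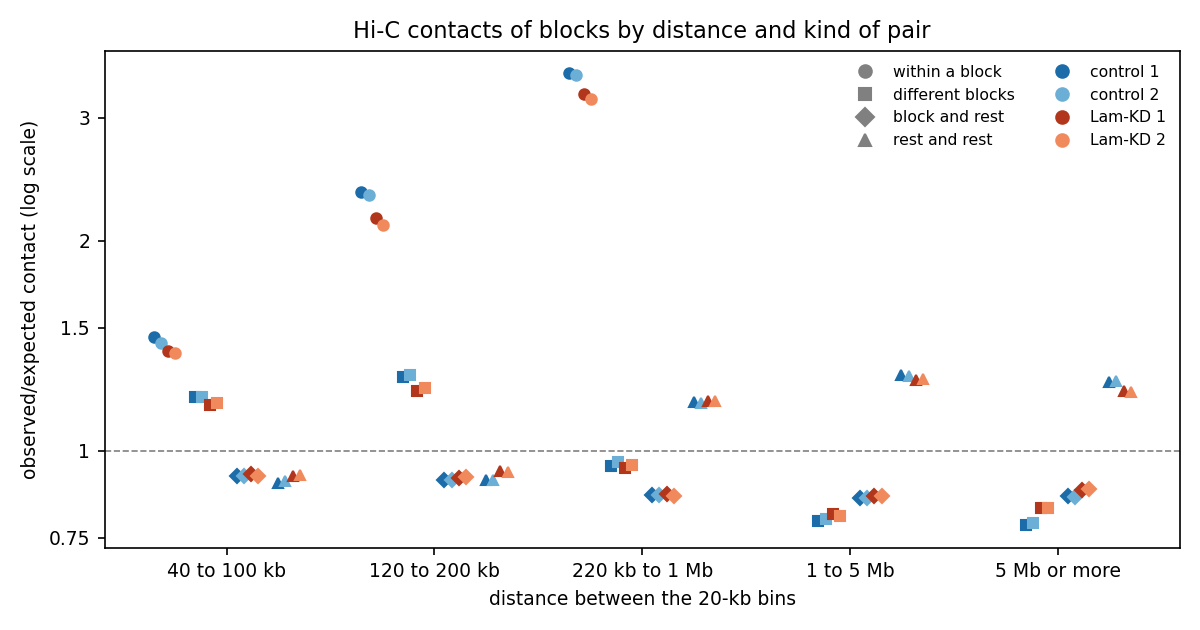
Mean observed/expected contact (vertical axis, log scale) in each of the 4 maps for pairs of 20-kb bins within a block, in different blocks, of a block and the rest, and within the rest, by distance (horizontal axis). Values within blocks go from about 1.4 at 40 to 100 kb to above 3 beyond 200 kb, where only the longest blocks have pairs. They are lower in both Lam-KD maps, while distant block pairs are near 0.8.

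None of the single block bins or blocks was called in the fits of observed/expected contacts and scaled ACF on condition alone. limma on the local contacts of each bin, with bins 2 to 5 away, called 0 of 1442 block bins at an adjusted p under 0.05, where 0.0267% of 3741 bins were called higher and 0% lower. At an unadjusted p under 0.05, 239 block bins were lower and 66 higher, against 11.1% and 14.7% of all bins, which is 416 and 551 bins. The median log2(FC) was −0.032 for block bins and 0.029 for the rest. The groups of maps did not overlap in 597 block bins that were lower (41.4%) and 191 that were higher (13.2%), against 28.8% and 29.2% of all bins. With values scaled to the same sum in place of observed/expected, the medians were −0.0033 and 0.044, and 19 block bins were called higher and 8 lower (1.32% and 0.555%), against 6.09% and 0.374% of all bins.

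The far contacts of each bin with blocks at 1 Mb or more gave 0 calls among 1442 block bins and 0% of 3741 bins at an adjusted p under 0.05. At an unadjusted p under 0.05, 100 block bins were higher and 23 lower, against 5.27% and 2.22% of all bins. The groups of maps did not overlap in 412 block bins that were higher and 165 that were lower, against 25% and 13.6% of all bins. The medians were 0.056 for block bins and 0.025 for the rest. Scaled to the same sum they were −0.071 and −0.091, so the direction of both turned with this scaling.

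ACF, the mean corrected contact value inside a region, was compared for 222 blocks and 444 tiles of 100 kb after scaling the maps to the same sum. limma called 0 blocks at an adjusted p under 0.05, where 0% of 666 regions were called, and at an unadjusted p under 0.05 3 blocks were higher and 13 lower, against 14.7% and 5.71% of all regions. The median log2(FC) of ACF was −0.030 for blocks and 0.039 for the rest. With maps as deposited the medians were 0.11 and 0.18, so the direction in blocks turned with this scaling, and 8 blocks (3.60%) were called higher, against 19.4% of regions. Groups did not overlap in 76 blocks that were lower (34.2%) and 22 that were higher (9.91%), against 22.7% and 30.6% of all regions. Across blocks, pairs of maps that share none had a Spearman's rho of 0.13, and the ratios of ACF and of acetylation a rho of 0.074.

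With maps scaled to the same sum, the ratios of single blocks spanned both signs. This depends on the scaling. With maps as deposited, 35 blocks were higher and 0 lower at an unadjusted p under 0.05 in limma, against 245 and 1 of all 666 regions. All values below are of scaled maps. ACF was most clearly lower at 3R:956001-1011000, where it was 407 and 371 in control and 326 and 336 in Lam-KD replicates, a log2(FC) of −0.23 ± 0.061 (SE, limma, adjusted p = 0.131). At 3R:8361001-8426000 it was 243 and 313 against 228 and 215, and at 3R:12311001-12380000 311 and 331 against 296 and 243, with log2(FC) of −0.32 and −0.26. All 3 of these lie on 3R. Among blocks with the same sign in all 4 pairs of maps, from which the 3 lower ones were also taken, the largest increases were 0.22 ± 0.064 (SE, limma, adjusted p = 0.139) at 3R:22551001-22625000, with 259 and 229 in control and 285 and 283 in Lam-KD replicates, 0.15 at 3L:7525001-7571000 and 0.12 at 3L:15239001-15291000. Each of these 6 blocks has only 3 bins, so its ACF is the contact value of a single pair of bins, and none passed the adjusted threshold. The scaled ACF of the 5 longest blocks moved by at most 0.022 in either direction, and the 36C block had 89.8 and 88.6 in control and 88.6 and 87.8 in Lam-KD replicates (log2(FC) −0.016, adjusted p = 0.870 in limma).

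Observed/expected contact within the 5 longest blocks, in contrast, was lower in both Lam-KD maps than in both control maps in each of them. Both measures use the same contact values, and observed/expected divides them by the mean of that map's arm at the same distance. The lower values are thus no independent measure beside scaled ACF, and the part of the expected values in them was not tested. In the 36C block the control mean was 2.15 and the Lam-KD replicates had 2.02 and 1.98. At 3L:13512001-13855000 the values were 2.08 and 2.01 in control and 1.92 and 1.85 in Lam-KD replicates, and at 3R:23814001-24090000 1.64 and 1.59 against 1.52 and 1.49. The blocks at 2L:4466001-4794000 and 2L:18159001-18442000 went from control means of 2.05 and 1.87 to Lam-KD values of 1.97 and 1.92, and of 1.77 and 1.76. These single values were not tested.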

How the data were processed

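The data used were H3 pan-acetylation ChIP-seq, its input and Hi-C, each in 2 biological replicates of control and of Lam-KD cells. The authors mapped 75-base ChIP and input reads to dm3 with Bowtie 2 (2.2.1), filtered on mapping quality, removed duplicates and deposited, for every 1-kb bin, the read count without scaling to depth. For Hi-C the authors deposited a signal, the contact value of 20-kb bin pairs after iterative correction, both per replicate and pooled by condition. The pooled maps entered 1 alternative as the authors' values. The RNA counts were not used, because no gene positions on dm3 were at hand.

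Blocks followed the rule given in the text. The members, lists and tests were chosen with earlier results of these data known. Regions named were the 5 longest blocks, the block at 36C, and the 3 highest and 3 lowest in contact within, in ACF change of the same sign in all 4 pairs, and in ChIP change. The rest of the 3 arms was cut into 30-kb tiles of at least 10 kb for ChIP and 100-kb tiles for ACF. ChIP counts were divided by the sum over the 4 autosomal arms, input by TMM. The ceiling correction assumed random start positions in a bin. Tests were edgeR 4.0.16 (quasi-likelihood, edgeR's filter on low counts), DESeq2 1.42.0 as an alternative and limma 3.58.1 on log2 values (regions at 0 left out, no pseudocount), each over all regions with Benjamini-Hochberg adjustment and a threshold of 0.05, in R 4.3.3, and exact permutation tests over maps. All other steps ran in Python 3.11.15 (pandas 2.3.3, numpy 2.4.6, matplotlib 3.10.9, scipy 1.17.1). Fits were tested on simulated data. Counts are subject to counting error, which at the depths given is small for a block. Replicate libraries differed beyond sampling noise, with a chi-square per bin from 1.16 to 3.70.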

Additional observations from a re-analysis of the deposited data

How the results depend on the processing

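Of 95 alternative values, 68 kept their direction and size or call, 25 moved and 2 turned to the other side of 1. The number of blocks went from 386 to 245 with a limit of 150 reads and to 224 with runs of 50 bins, and was 387 and 379 in single control replicates. The median log2(FC) of H3 pan-acetylation in blocks was 0.29, and 0.18 with TMM, 0.014 with the median bin and 0.22 with ceiling correction; leaving out each replicate gave 0.26 to 0.31. Its difference from the rest, 0.23, was 0.17 with ceiling correction and 0.21 to 0.26 without a replicate. ChIP over input with ceiling correction was −0.71 in control and −0.50 in Lam-KD cells.

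Contacts within blocks in control cells, 1.72, were 1.55 as a median and 1.94 at 3 bins or more. As medians over pairs with a contact, contacts between blocks were 1.54 on the same arm and 8.64 between arms, since pairs at 0 are left out there. Without the outer 2 Mb, the mean on the same arm was 0.765 in place of 0.787. Bins wholly inside a block and the pooled map moved each of these means by less than 1 SD of the control replicates.

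Blocks chosen in control replicate 1 called higher, 314, were 31 with TMM, 35 with DESeq2 (183 blocks with an adjusted p) and 0 with ceiling correction. All regions split 430 higher and 141 lower, 31 and 318 with TMM, 35 and 377 with DESeq2, and 0 and 0 with ceiling correction. Blocks chosen in replicate 2 stayed at 0 under each. In the 4-library ChIP fit, which shares the libraries of the rule, 386 of 386 blocks were called higher and 42% of regions, DESeq2 called 183, and 0 to 386 were called without a replicate: 0 without either control replicate, at 379 and 365 blocks with an unadjusted p under 0.05. All regions split 834 higher and 276 lower with library sums and 393 and 502 with TMM. Of block bins in the local contact fit 27 were called with scaled values (19 higher, 8 lower, against 228 and 14 of all 3741 bins). Without a replicate 0 to 126 were called: 75 without control replicate 1 (23 higher, 52 lower, against 4.73% and 2.94% of all bins) and 126 without control replicate 2 (31 higher, 95 lower, against 7.38% and 3.85%). The ACF fit called 8 blocks with maps as deposited, all higher, against 129 of 666 regions, and 0 to 2 without a replicate (1 without Lam-KD replicate 1 and 2 without Lam-KD replicate 2).

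The labels tie same-numbered samples by the number alone, and whether they share more is not known. The deviations of same-numbered replicates correlated at −0.66 in ChIP, 0.034 in input, 0.028 in local contacts, −0.036 in far contacts and 0.19 in ACF, with only 2 pairs in each. With a replicate block, 383 blocks were called in the ChIP fit, 29 block bins (2 higher, 27 lower, against 55 and 44 of all bins) in the local contact fit, and 0 in the input, far contact and ACF fits. With crossed numbers, an alternative chosen after seeing the data like the one without the outer 2 Mb, the ChIP fit called 386 blocks, and 1109 regions higher and 456 lower in all. The RNA fit and its alternatives were not run. Having 2 replicates per condition, 1 depth per condition in ChIP and 20-kb bins limit what could be called.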
